A study of Mus musculus with 6 samples.

Results

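The GADD45, BTG and TOB genes encode small stress-induced and antiproliferative proteins, and 8 of them were followed here across 6 RNA-seq libraries of primary mouse chondrocytes. They were taken by symbol from the deposited table of 55401 genes: Gadd45a, Gadd45b, Gadd45g, Btg1, Btg2, Btg3, Tob1 and Tob2, each with 1 row. All 8 had counts in every library, of at least 1004, and all 8 passed the filter on low counts. The libraries form 2 groups of 3. Those of the Nf2-knockout group came from floxed Nf2 chondrocytes described as knockout, and those of the control group from floxed Nf2 (Nf2f/f) chondrocytes. Every library is labelled as cartilage tissue, and the series' design text speaks of primary culture with differentiation. The library names carry the tag D7, which the labels do not explain. Age, strain, the means of deletion and whether replicates were separate animals are not given. All 3 Nf2-knockout libraries also carry a treatment entry of TCF21 overexpressing, absent from their titles, and Tcf21 itself had between 0 and 2 counts per library.

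GADD45 proteins have no known enzymatic activity of their own and work by binding others. They activate the kinase MAP3K4 upstream of p38 and JNK, and they bind PCNA, the CDK inhibitor p21 and the complex of CDK1 with cyclin B1. BTG and TOB proteins share an N-terminal domain that binds the deadenylases of the CCR4-NOT complex and so joins them to the shortening of mRNA tails, and their overexpression slows entry into the cell cycle. In cartilage and bone, Gadd45b has been described in hypertrophic chondrocytes, and Tob1 as a brake on BMP signalling in osteoblasts.

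Total counts ran from 50906043 to 63748798 per library. Nf2, which encodes the Hippo pathway regulator merlin, stood at 87.9, 100.6 and 97.4 CPM (counts relative to a library total scaled by TMM factors) in Nf2-knockout replicates 1 to 3 and at 125.6, 132.7 and 122.3 CPM in control replicates 1 to 3, lower in each knockout library, with transcripts remaining. Its log2 fold change of −0.41 (SE 0.0866, adjusted p = 0.0305) did not pass when any 1 library was left out (adjusted p 0.0518 to 0.123). All 17 chondrocyte markers were expressed, at a summed 1082 to 2040 CPM in Nf2-knockout and 954 to 1430 CPM in control libraries, and edgeR called Col2a1 higher and Col9a2 lower. Neither was called on FPKM, without a filter on low counts, or when knockout replicate 1 or any 1 control library was left out. The 9 fibroblast markers summed to 14298.5 to 16310.6 and 18017.7 to 21208.1 CPM, with Lum and Pdgfra called lower (1 call if knockout replicate 1 or any 1 control library was absent). Markers of macrophages were lower in Nf2-knockout libraries, at a summed 49.3 to 112 against 159 to 424 CPM, and 0 of 15 lacked counts. Of 14 tested, 5 were called lower (Cd68, Csf1r, C1qa, C1qb and Mrc1) and 0 higher, against 5.18% of all tested genes called lower. Lacking knockout replicate 1, knockout replicate 3, control replicate 2 or control replicate 3 there were 0 macrophage calls by edgeR, lacking knockout replicate 2 there was 1 and lacking control replicate 1 there were 3, while DESeq2 on all libraries made 10 and limma on unfiltered FPKM 0 (10 at an unadjusted p under 0.05 by edgeR on all libraries). The 10 pericyte markers summed to 582 to 906 against 408 to 457 CPM, with 3 called higher (Rgs5, Acta2 and Cspg4) and 1 lower (Abcc9), and 2 calls in all if control replicate 1 or control replicate 2 was absent. The 7 osteoblast markers summed to 8316 to 10522.5 against 8220 to 11130.8 CPM with 0 calls by edgeR (2 at an unadjusted p under 0.05, against 24.8% of all genes, and 2 calls by DESeq2). Nearly all of that sum was Spp1, at 8292 to 10490.8 against 8179 to 11104.7 CPM. Among the others, Dmp1 (log2 fold change 3.07, mean 0.999 against 0.117 CPM) and Alpl (−1.19) differed in direction. The 8 endothelial markers summed to 78.0 to 91.6 against 61.8 to 82.6 CPM, most of it Eng (72.4 to 82.6 against 56.9 to 80.5 CPM). Of them 1 was called higher, Kdr, which was not called if knockout replicate 1, knockout replicate 3, control replicate 1 or control replicate 2 was absent. Of 8 lymphocyte markers 7 had a count of 0 in all libraries. Transcripts of the mitochondrial chromosome took 7.44% to 7.65% of counts in Nf2-knockout and 8.29% to 10.3% in control libraries. What part these differences have in the values below was not tested, and in bulk RNA fewer cells of a type and less RNA per cell cannot be told apart.

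The growth brakes did not move together. Gadd45a, Gadd45b and Btg1 fell in Nf2-knockout chondrocytes, Gadd45g rose, and Btg2, Btg3, Tob1 and Tob2 did not pass the test. Thus 4 of 8 members (50.0%) changed at an adjusted p under 0.05, where 9.29% of the 18218 tested genes did. The 3 falls stand against 5.18% of all genes called lower, and the 1 rise against 4.11% called higher. In 6 of the 8 members the libraries of the 2 groups did not overlap in CPM, against 32.9% of all tested genes. Of these 3 were higher (15.5% of all genes) and 3 lower (17.4%). Over the members the median log2 fold change was 0.09, beside −0.01 over the whole tested set. The number of changed members was 1 if knockout replicate 1, knockout replicate 3 or control replicate 2 was left out. It was 2 without control replicate 1 and 3 when either knockout replicate 2 or control replicate 3 was absent, with Gadd45a called every time.

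**Figure D1:**
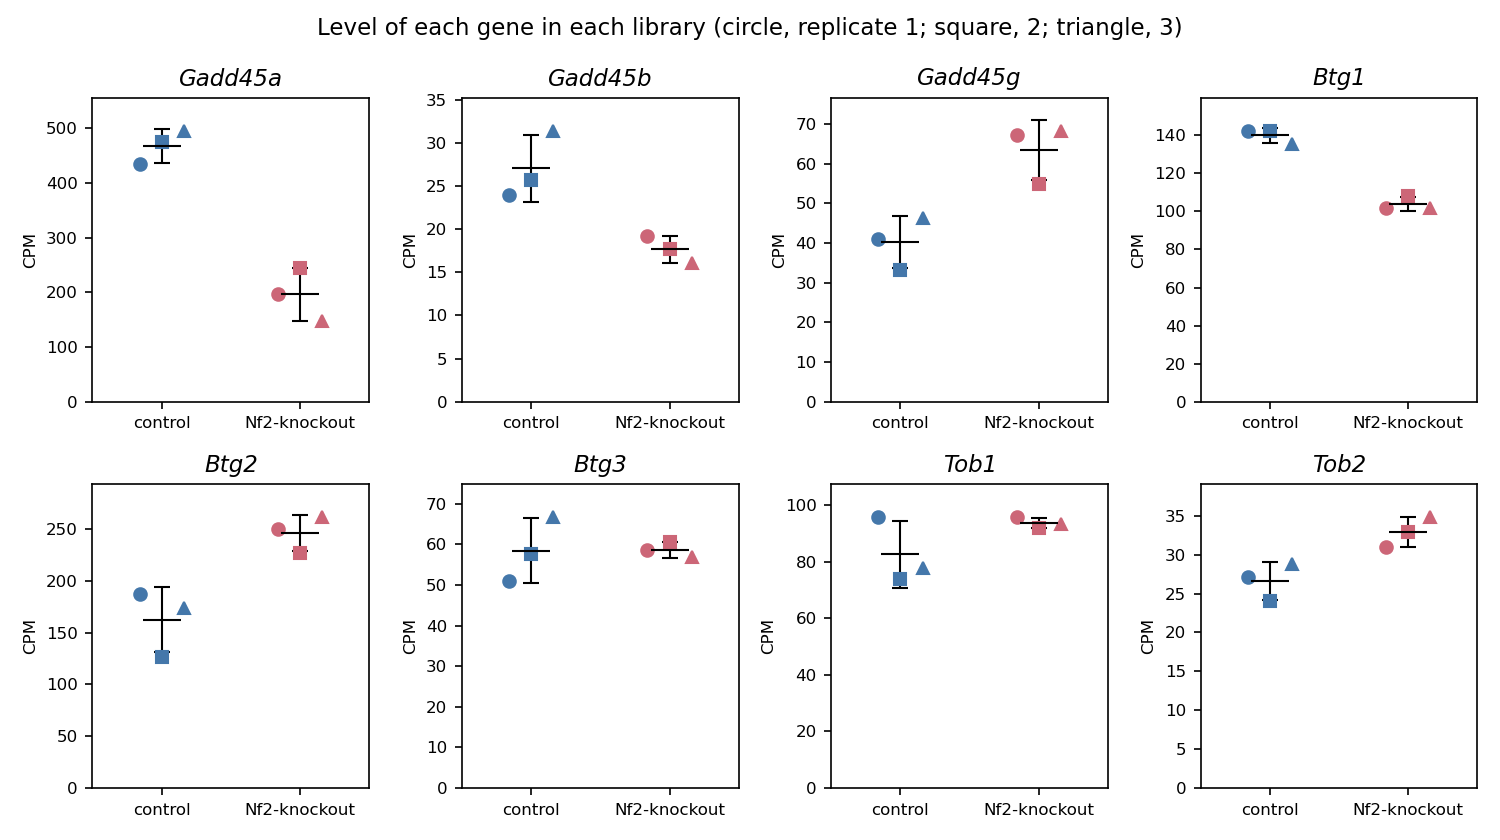
Level of each of the 8 genes in CPM (y axis, from 0) in the 3 control and 3 Nf2-knockout libraries. Points are libraries with a symbol for each replicate, and bars show the mean ± SD (n = 3). Gadd45a, Gadd45b and Btg1 are lower and Gadd45g, Btg2 and Tob2 higher in every Nf2-knockout library than in every control, while Btg3 and Tob1 overlap.

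The paralogs that parted most are shown with the 250 bases before their transcription start, as given by RefSeq on GRCm38.p6, because within each family their profiles lay furthest apart. Capitals mark the octamer (ATTTGCAT, bound by POU factors such as OCT-1), the CCAAT box (CCAAT), the TATA box (TATAAA) and the cAMP response element (TGACGTCA), each on either strand. The windows are chr6:67037408-67037657 on the minus strand for Gadd45a, chr13:51846425-51846674 on the plus strand for Gadd45g, chr10:96616751-96617000 on the plus strand for Btg1 and chr1:134079156-134079405 on the minus strand for Btg2.
Gadd45a: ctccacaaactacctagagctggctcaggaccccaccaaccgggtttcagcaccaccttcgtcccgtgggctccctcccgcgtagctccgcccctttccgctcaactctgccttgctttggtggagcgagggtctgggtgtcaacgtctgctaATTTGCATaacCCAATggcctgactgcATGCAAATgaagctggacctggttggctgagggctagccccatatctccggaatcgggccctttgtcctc
Gadd45g: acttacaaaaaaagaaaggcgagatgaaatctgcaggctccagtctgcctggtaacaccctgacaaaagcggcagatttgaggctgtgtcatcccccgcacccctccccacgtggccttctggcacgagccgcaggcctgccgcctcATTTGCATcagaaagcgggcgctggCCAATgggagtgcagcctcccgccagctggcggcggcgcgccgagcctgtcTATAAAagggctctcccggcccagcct
Btg1: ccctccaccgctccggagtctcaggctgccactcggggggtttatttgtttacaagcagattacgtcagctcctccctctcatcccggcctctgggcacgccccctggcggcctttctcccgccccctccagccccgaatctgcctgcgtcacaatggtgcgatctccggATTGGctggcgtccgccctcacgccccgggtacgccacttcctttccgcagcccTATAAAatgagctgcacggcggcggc
Btg2: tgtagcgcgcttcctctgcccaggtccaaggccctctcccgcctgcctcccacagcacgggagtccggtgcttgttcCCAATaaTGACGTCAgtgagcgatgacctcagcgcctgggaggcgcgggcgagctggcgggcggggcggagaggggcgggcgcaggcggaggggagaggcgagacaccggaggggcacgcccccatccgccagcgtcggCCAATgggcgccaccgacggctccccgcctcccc
Gadd45a held the octamer at 97 to 90 bases before the start and, on the opposite strand, at 70 to 63 bases before it, with a CCAAT box between them at 86 to 82 bases. Gadd45g held 1 octamer at 103 to 96 bases, a CCAAT box at 78 to 74 bases and a TATA box at 27 to 22 bases before the start. These were the 2 members with the octamer, which 1.60% of the 32851 RefSeq windows of this length hold (genes with several starts give several windows). The transcript of Gadd45a fell and that of Gadd45g rose. Btg2 alone among the 8 held the full cAMP response element, at 166 to 159 bases before the start, a motif found in 1.55% of windows. A CCAAT box stood in 7 of 8 members (33.8% of all windows), all but Tob2, and a TATA box in 4 of 8 (12.4%), namely Gadd45b, Gadd45g, Btg1 and Tob1. The E-box (CACGTG, 6.02% of windows) stood in Gadd45b and Gadd45g and the GC box (GGGCGG, 32.7%) in 7 members, all but Gadd45g. The AP-1 site (TGACTCA, 4.46%) and the MCAT motif bound by TEAD factors (GGAATG, 12.6%) were in 0 of 8. A match describes the letters of this window and not a bound site. The RefSeq starts of Gadd45b and Tob2 lie inside their gene spans in the deposited table, and Btg3 has 2 starts.

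Gadd45a, the DNA damage-inducible gene that gives the family its name and a classic p53 target, showed the largest change of the 8 and was the most abundant per length. It lies on chromosome 6 (67035096 to 67037406, minus strand, GRCm38, ENSMUSG00000036390). Its level was 197.5, 244.2 and 147.1 CPM in Nf2-knockout replicates 1 to 3 and 434.3, 474.1 and 496.0 CPM in control replicates 1 to 3. Every knockout library lay below every control, with knockout replicate 2 the highest of its group. The mean fell by 58.1%, from 468 ± 31.3 to 196 ± 48.6 CPM (SD, n = 3 each), a log2 fold change of −1.25 (SE 0.179, 95% interval −1.68 to −0.83, adjusted p = 0.00972). An exact permutation test, two-sided and on CPM, gave p = 0.1, the smallest that 3 against 3 allows, here and for each other member whose groups did not overlap. The call held in 6 of 6 fits lacking 1 library and in 7 of 7 fits with another tool, scaling, filter, unit or block, with log2 fold changes from −1.44 to −1.07. Spread was wider among knockout libraries, with a coefficient of variation of 24.7% against 6.68% in controls. The noncoding gene E230016M11Rik overlaps 808 bases of Gadd45a on the other strand and had 42 to 89 counts per library, against at least 9825 for Gadd45a.

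Gadd45b, which is induced by NF-κB and TGF-β signalling, fell by a smaller margin. It lies on chromosome 10 (80930073 to 80932204, plus strand, ENSMUSG00000015312). Its level was 19.2, 17.7 and 16.1 CPM in Nf2-knockout and 23.9, 25.8 and 31.4 CPM in control libraries, replicates 1 to 3. The groups did not overlap, and knockout replicate 1 and control replicate 1 lay closest to each other. The log2 fold change was −0.61 (SE 0.139, 95% interval −0.94 to −0.29, adjusted p = 0.0381). This call is at the edge of the threshold, since it did not pass when any 1 library was left out (adjusted p 0.0525 without control replicate 1 to 0.128 without Nf2-knockout replicate 3), without a filter on low counts (0.0524) or in the 3 fits on FPKM (0.0507 to 0.0865). DESeq2 called it (adjusted p = 0.00336). The summed macrophage markers were also lower in the knockout group, at 49.3 to 112 against 159 to 424 CPM. Of all tested genes, 17.4% were lower there with no overlap between the groups. Cd68 stood at 27.9 ± 5.57 against 47.3 ± 5.85 CPM, a difference that did not pass when any 1 library was left out (adjusted p 0.0553 to 0.117). The summed fibroblast markers were also lower (14298.5 to 16310.6 against 18017.7 to 21208.1 CPM), and the summed pericyte markers were higher (582 to 906 against 408 to 457 CPM). Much of that pericyte sum was Acta2, at 355 ± 151 against 139 ± 12.1 CPM. Of the 10 pericyte markers, 3 were called higher (4.11% of all tested genes) and 1, Abcc9, lower (5.18%). The part of these marker differences in the falls of Gadd45a and Gadd45b was not tested.

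Gadd45g, known also as a cytokine-responsive member of the family, went the other way. It lies on chromosome 13 (51846678 to 51848468, plus strand, ENSMUSG00000021453). Its level was 67.2, 54.9 and 68.3 CPM in Nf2-knockout and 41.0, 33.3 and 46.2 CPM in control libraries, replicates 1 to 3. Replicate 2 was the lowest of its group in both genotypes, and the lowest knockout library still lay above the highest control. The means of 63.5 ± 7.47 and 40.2 ± 6.54 CPM gave a 1.58-fold rise (log2 fold change 0.66, SE 0.150, 95% interval 0.31 to 1.01, adjusted p = 0.0387). The call held in the absence of knockout replicate 2 or control replicate 3. It did not pass in the absence of knockout replicate 1 (adjusted p = 0.118), knockout replicate 3 (0.118), control replicate 1 (0.0941) or control replicate 2 (0.101). The interacting protein gene Gadd45gip1 stood at 34.2 ± 1.41 against 35.5 ± 2.15 CPM (−0.05, adjusted p = 0.78).

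The makeup of the GADD45 family differed between the groups. On the FPKM scale, which is per transcript length and so can be summed over genes, the 3 genes together gave 167.9, 182.0 and 142.9 in knockout replicates 1 to 3, below the 258.6, 272.4 and 293.6 of control replicates 1 to 3. Gadd45a made up 54.9% to 70.5% of that sum in knockout and 82.6% to 85.8% in control libraries. Gadd45g made up 23.8% to 38.4% in knockout and 9.04% to 11.8% in control libraries. The ratio of Gadd45a to Gadd45g FPKM was 1.43 to 2.96 in knockout and 7.04 to 9.49 in control libraries, with no overlap. Gadd45b held between 5.08% and 6.68% in all 6 libraries, with overlap between the groups. These shares restate the levels above and carry no test.

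**Figure D2:**
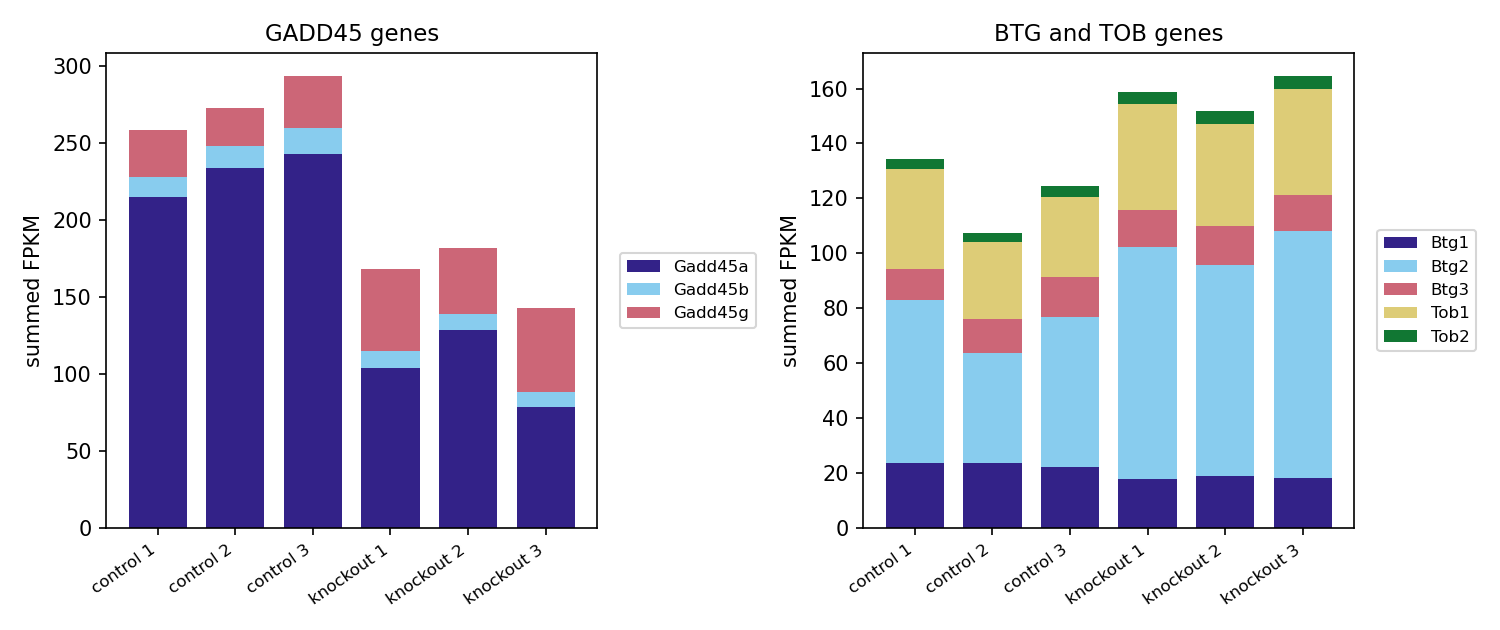
FPKM (y axis, from 0) of the 3 GADD45 genes, left, and of the 5 BTG and TOB genes, right, stacked for each of the 6 libraries. The GADD45 total is lower in the Nf2-knockout libraries (142.9 to 182.0 against 258.6 to 293.6) with a smaller Gadd45a part, and the BTG and TOB total is higher (151.7 to 164.7 against 107.3 to 134.3) with most of the gain in Btg2.

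Among the BTG genes, Btg1 fell while Btg2 was higher without passing. Btg1, an antiproliferative gene that is typically high in resting cells, lies on chromosome 10 (96617006 to 96622809, plus strand, ENSMUSG00000036478), 15.7 megabases from Gadd45b. Its level was 102.0, 108.1 and 101.7 CPM in the knockout and 142.5, 142.1 and 135.4 CPM in control libraries, replicates 1 to 3. These were among the tightest replicates of the family, with coefficients of variation of 3.47% and 2.86%, and the mean fell by 25.8%. The log2 fold change was −0.43 (SE 0.0752, 95% interval −0.61 to −0.25, adjusted p = 0.0174). It no longer passed in the absence of knockout replicate 1 (adjusted p = 0.0889), knockout replicate 3 (0.0814) or control replicate 2 (0.0664). The related genes Btg1b and Btg1c on the X chromosome had 0 counts in all libraries, and how reads shared between such copies were assigned is not stated.

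Btg2, a p53-inducible immediate early gene that is the most abundant of the BTG and TOB genes here, lies on chromosome 1 (134075170 to 134079120, minus strand, ENSMUSG00000020423). Its level was 249.7, 227.3 and 261.8 CPM in Nf2-knockout and 187.1, 126.6 and 174.2 CPM in control libraries, replicates 1 to 3. All knockout values lay above all controls, and the controls were spread by control replicate 2, the lowest. The log2 fold change of 0.60 (SE 0.151, 95% interval 0.24 to 0.95) narrowly missed the threshold (adjusted p = 0.0539). DESeq2 (adjusted p = 0.00432) and the filtered FPKM fits (0.0393 and 0.0402) passed it, whereas 0 of the 6 edgeR fits without 1 library did (0.0585 to 0.152). The FPKM ratio of Btg2 to Btg1 was 4.05 to 4.95 in knockout and 1.71 to 2.53 in control libraries. Summed over the 5 BTG and TOB genes, FPKM was 158 ± 6.53 in knockout and 122 ± 13.7 in control libraries, with no overlap and no test. FPKM ran slightly higher in knockout libraries in general, with a median log2 fold change of 0.07 on filtered FPKM with a pseudocount of 1, against −0.01 on counts.

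Btg3, which has been described as a p53 target that binds E2F1, did not differ detectably. It lies on chromosome 16 (78332637 to 78376810, minus strand, ENSMUSG00000022863). Its level was 58.5, 60.7 and 56.8 CPM in Nf2-knockout and 50.9, 57.7 and 66.8 CPM in control libraries, replicates 1 to 3, and the knockout values lay inside the control range. The log2 fold change was 0.01 (adjusted p = 0.987), with a 95% interval from −0.27 to 0.28 that leaves room for a change of that size in either direction. Its sign turned without Nf2-knockout replicate 2 (−0.02), control replicate 1 (−0.09) or control replicate 2 (−0.0044). The gene Cxadr overlaps 8124 bases of it on the other strand and had 112 to 215 counts in knockout and 365 to 534 in control libraries, against 3016 to 3830 for Btg3. No source states whether counting used strand, so reads of this pair cannot be told apart where they overlap. The relative Btg4 had 0 to 7 counts per library.

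The TOB genes were slightly higher in knockout libraries without passing. Tob1, the corepressor of SMAD signalling, lies on chromosome 11 (94211454 to 94215495, plus strand, ENSMUSG00000037573) and stood at 95.7, 91.9 and 93.4 CPM in Nf2-knockout and 95.9, 73.9 and 77.9 CPM in control libraries, replicates 1 to 3. The groups overlapped through control replicate 1, the highest of the 6, and the log2 fold change was 0.18 (SE 0.113, 95% interval −0.08 to 0.45, adjusted p = 0.375). In FPKM the groups did not overlap (37.3 to 38.7 against 28.1 to 36.6), and the limma fits on FPKM did not pass either (adjusted p 0.149 to 0.219). Tob2, its closest paralog, lies on chromosome 15 (81848272 to 81858796, minus strand, ENSMUSG00000048546) and stood at 31.0, 32.9 and 34.9 CPM in knockout and 27.1, 24.0 and 28.8 CPM in control libraries. Every knockout library lay above every control, at a log2 fold change of 0.31 (SE 0.110, 95% interval 0.05 to 0.56) that did not pass over all genes (adjusted p = 0.138). The balance between them barely moved, since Tob1 held 88.6% to 91.2% of the summed TOB FPKM in all 6 libraries.

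**Figure D3:**
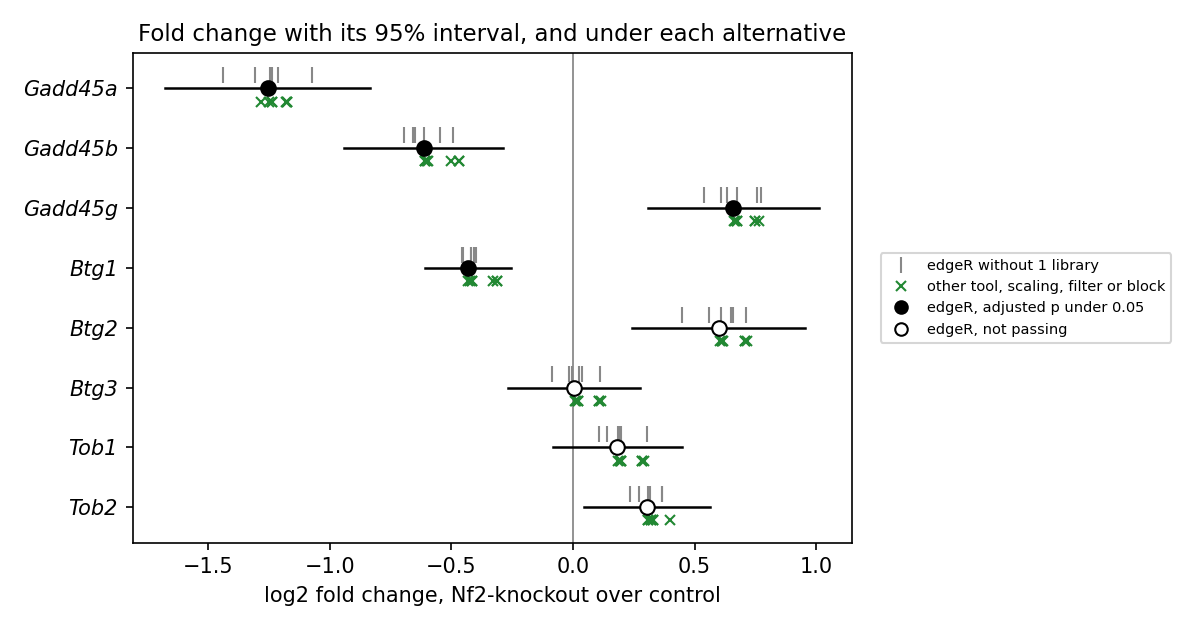
Log2 fold change of Nf2-knockout over control for the 8 genes (x axis), with the 95% interval from edgeR as a line. Filled circles passed the adjusted threshold, ticks above are fits without 1 library and crosses below are other tools, scalings, filters or the block. Of the 8 genes, 7 stay on their side of 0 in every fit shown, and Btg3 crosses it.

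Ordered by FPKM, the control cells ran Gadd45a (230 ± 14.1), Btg2 (51.5 ± 10.1), Tob1 (31.3 ± 4.57), Gadd45g (29.7 ± 4.74), Btg1 (23.0 ± 0.789), Gadd45b (14.8 ± 2.04), Btg3 (12.6 ± 1.65) and Tob2 (3.47 ± 0.307; SD, n = 3). The ranges of Tob1 and Gadd45g overlapped, as did those of Gadd45b and Btg3, and the other neighbours were apart. In Nf2-knockout cells the order was Gadd45a (104 ± 24.9), Btg2 (83.7 ± 6.55), Gadd45g (50.4 ± 6.18), Tob1 (38.1 ± 0.783), Btg1 (18.3 ± 0.572), Btg3 (13.6 ± 0.357), Gadd45b (10.3 ± 0.824) and Tob2 (4.60 ± 0.306). There Gadd45a and Btg2 overlapped and all other neighbours were apart. Gadd45a and Btg2 were apart in controls and overlapped in knockout libraries, and Gadd45g and Gadd45b each stood in another place, next to a neighbour whose range overlapped theirs in controls. All 8 genes are well expressed, with mean FPKM above 58.8% of the tested genes for Tob2 and above 98.4% for Gadd45a.

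As a description with no test, control replicate 2 was the lowest control for Gadd45g, Btg2, Tob1 and Tob2, 4 of the 8. Nf2-knockout replicate 2 was the lowest knockout library for Gadd45g, Btg2 and Tob1 and the highest for Gadd45a, Btg1 and Btg3. Over all 6 libraries Gadd45g and Btg2 had the most similar profile of any pair of members, with a root mean square difference of 0.102 between their log2(CPM + 1) values, each centred on its own mean. This measure includes the difference between the groups, so genes with like fold changes lie close by it, and it does not describe variation within a group. For Gadd45a and Gadd45g it was 1.02, the largest of the 28 pairs. The same measure was taken over 10691 tested genes with a mean FPKM of at least 1, leaving out Gm, Rik, clone-type and repeated symbols. Among them, the genes nearest to Gadd45a were Smim3 (0.0553), Dhx58 (0.0818) and Arid5a (0.0848). Those nearest to Gadd45b were Pnkd (0.0491), Cox8a (0.061) and Sesn1 (0.0646), to Gadd45g Lmna (0.042), Hmgn5 (0.0524) and Gss (0.0602), and to Btg1 Tmem135 (0.033), Mbtps2 (0.0361) and Ide (0.0382).

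Among the genes of the proteins that GADD45 binds or acts through, Mapk13, Cdk1 and Pcna rose. Of 11 stress kinases, 1 rose and 0 fell, where 4.11% of all tested genes were called higher and 9.29% either way, so 1 call is near that background. The list had a median of 0.23 beside −0.01 over all tested genes. The rise was Mapk13, the p38δ gene, at 23.8 ± 1.07 against 12.5 ± 2.79 CPM (0.93 on the log2 scale, adjusted p = 0.0224), lost without any 1 Nf2-knockout library or control replicate 1 (adjusted p up to 0.077). Map3k4, the kinase that GADD45 proteins bind and the 1 list gene chosen after its values were seen, stood at 26.3 ± 0.299 against 25.0 ± 3.02 CPM (0.07, adjusted p = 0.76). Map2k7, the JNK kinase that Gadd45b inhibits, ranged from 24.9 to 58.3 CPM in knockout and 20.8 to 35.4 CPM in control libraries (0.60, adjusted p = 0.311). Mapk8 (−0.36, adjusted p = 0.138), Mapk9 (0.32, 0.144) and Map2k6 (−0.66, 0.168) did not pass. Among 6 cell cycle and repair partners 2 rose and 0 fell (median 0.28), against 4.11% of all tested genes called higher. Cdk1, the mitotic kinase, went from 25.0 ± 2.66 to 36.4 ± 2.09 CPM (0.54, adjusted p = 0.0315) and Pcna, the replication clamp, from 102.6 ± 11.1 to 136.3 ± 2.55 CPM (0.41, adjusted p = 0.0439). The Cdk1 call was lost without any 1 library (adjusted p 0.0541 to 0.103) and the Pcna call without each except control replicate 3 (up to 0.144). Ccnb1 (cyclin B1) stood at 30.6 ± 6 against 17.95 ± 4.24 CPM (0.77, adjusted p = 0.0697), Cdkn1a (p21) at 770.5 ± 53.5 against 696.3 ± 102 CPM (0.15, 0.536) and Tdg at 8.12 ± 2.6 against 10.3 ± 4.03 CPM (−0.34, 0.626).

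The deadenylase machinery to which BTG and TOB proteins dock gave 0 calls by edgeR among 15 genes (3 at an unadjusted p under 0.05, against 24.8% of all tested genes), with a median of −0.15, which was −0.03 on filtered FPKM with a pseudocount of 1. DESeq2 called 1, Tnks1bp1, which stood at 119 ± 9.09 against 96.7 ± 5.79 CPM (log2 fold change 0.30, edgeR adjusted p = 0.0941). Cnot6, a catalytic subunit, stood at 38.9 ± 4.43 against 51.7 ± 5.99 CPM (−0.41, adjusted p = 0.0984), Cnot8, another catalytic subunit and direct BTG partner, at 53.8 ± 1.87 against 62.0 ± 0.758 CPM (−0.20, 0.167), Cnot9 at 38.8 ± 2.45 against 32.9 ± 2.88 CPM (0.24, 0.231) and Pan3 at 18.6 ± 5.25 against 26.1 ± 2.15 CPM (−0.49, 0.203). Of 5 other partners of BTG and TOB proteins, 1 rose and 0 fell (median 0.02), against 4.11% of all tested genes called higher, and 1 call in so short a list is no result about it. Smad9, a BMP-responsive SMAD, went from 3.86 ± 0.441 to 8.43 ± 1.46 CPM (1.13, adjusted p = 0.0187), a call that held without Nf2-knockout replicate 2 and was lost without each other library (up to 0.0659). The arginine methyltransferase gene Prmt1, whose product binds BTG1 and BTG2, stood at 90.7 ± 6.51 against 89.5 ± 13.4 CPM (0.02, adjusted p = 0.952), Smad1 at −0.09 (0.7), Smad5 at −0.23 (0.613) and Hoxb9 at 0.69 (0.43) on the log2 scale.

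Of 12 tested transcription factors known to induce or repress these genes, 1 rose and 0 fell (median 0.01), near the 9.29% of all tested genes called either way. It was Ddit3, which encodes the stress factor CHOP and was itself first found as a growth arrest and DNA damage gene, at 89.7 ± 12.2 against 58.7 ± 8.17 CPM (0.61 on the log2 scale, adjusted p = 0.04). That call held without control replicate 3 and was lost without each other library (up to 0.13). Trp53, the gene of p53, stood at 55.0 ± 3.63 against 51.7 ± 2.72 CPM (0.09, adjusted p = 0.613), Foxo3 at 45.7 ± 2.03 against 52.8 ± 3.46 CPM (−0.21, 0.223), Egr1 at 454 ± 17.4 against 395 ± 45.6 CPM (0.20, 0.288) and Brca1 at 5.27 ± 0.917 against 3.59 ± 0.665 CPM (0.56, 0.19). The immediate early and stress genes gave 4 rises and 1 fall among 24 (median 0.35), where 4.11% of all tested genes were called higher and 5.18% lower. The unadjusted edgeR p was under 0.05 for 16 genes on this list, beside 24.8% of the whole tested set. Klf4, a factor of growth arrest and differentiation, went from 55.2 ± 12.8 to 113 ± 14.1 CPM (1.04, adjusted p = 0.0188), Fosb from 4.62 ± 0.551 to 8.91 ± 1.34 CPM (0.95, 0.0249) and Ier5 from 66.2 ± 12.5 to 99.3 ± 0.318 CPM (0.58, 0.0411), and Ddit3 is the fourth. The fall was Nr4a3, an orphan nuclear receptor gene, from 11.5 ± 2.2 to 3.9 ± 0.839 CPM (−1.56, adjusted p = 0.0102), called in each fit without 1 library. Lacking knockout replicate 1 or 3 the list had 0 rises and 1 fall, lacking control replicate 2 it had 1 and 1, lacking knockout replicate 2 it had 2 and 1, lacking control replicate 1 it had 3 and 1, and lacking control replicate 3 it had 5 and 1.

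The CDK inhibitors and pocket proteins, the other brakes on the cell cycle, gave 1 rise and 0 falls among 10 (median −0.09, and 0.04 on FPKM), near the 9.29% of all tested genes called either way. Cdkn2b, which encodes the CDK4 and CDK6 inhibitor p15, went from 75.6 ± 8.36 to 112 ± 15.9 CPM (0.57 on the log2 scale, adjusted p = 0.044). That call held without Nf2-knockout replicate 2 and was lost without each other library (up to 0.135). Rbl2, the gene of the pocket protein p130, stood at 41.4 ± 3.39 against 59.8 ± 9.05 CPM (−0.53, edgeR adjusted p = 0.0536), and without control replicate 3 it was the 1 fall of the list. DESeq2 on all libraries also called it lower. Rb1 (−0.42, adjusted p = 0.156), Cdkn2c (−0.31, 0.14) and Cdkn1b (−0.33, 0.276) did not pass.

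**Figure D4:**
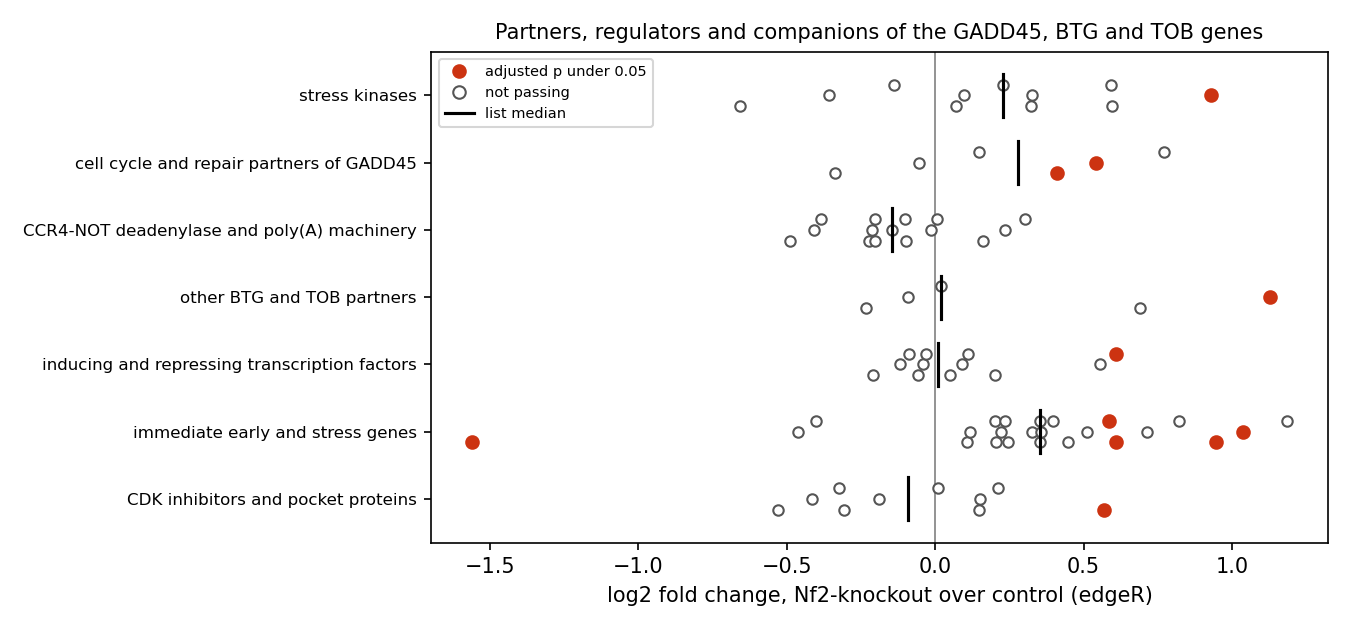
Log2 fold change of Nf2-knockout over control (x axis) for each tested gene of the 7 lists. Filled points passed the adjusted threshold and the black line is the list median. The immediate early and stress genes have the highest median (0.35) and the deadenylase machinery the lowest (−0.15, and −0.03 on FPKM), with 0 calls by edgeR (3 at an unadjusted p under 0.05, and 1 call by DESeq2).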

How the data were processed

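Poly(A) RNA of 6 libraries was sequenced. Tools listed in the submitters' processing notes, with no role given, are cutadapt (1.9), HISAT2 (2.0.4), edgeR and StringTie (1.3.4d). No source used here gives the genome build, but 94.2% of 55141 gene positions equal GENCODE M21 (GRCm38). The deposited counts are whole numbers whose making is not stated, so they may be rounded coverage estimates. The deposited FPKM values were scaled by the authors for length and depth, with 0.0001 for a count of 0.

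Groups and replicate numbers came from the titles. Counts were tested across all genes with edgeR 4.0.16 in R 4.3.3 (filterByExpr, TMM, glmQLFit and glmQLFTest, group alone, Benjamini-Hochberg over 18218 genes, threshold 0.05). SE is approximate, the size of the log2 fold change divided by the root of F. Nothing says that replicates were separate animals or cultures. The p-values set the group difference against the spread between libraries, which may be technical. Alternatives were DESeq2 1.42.0, its size factors, no filter, limma 3.58.1 on log2(FPKM + 1) or log2(FPKM + 0.1) at a mean FPKM of at least 0.5 or unfiltered, a replicate block and leaving out each library. The fit was tested on simulated data with 200 changed genes drawn at any level of expression. It recovered 1.52% of 1.5-fold, 29.2% of 2-fold and 51.6% of 4-fold changes. Of 56 calls, 4 were false. The real fit called 1693 genes, so the adjusted threshold was stricter in the simulation. Its changed genes also included weakly expressed ones, unlike the members. These rates are therefore not those of the members. A gene that did not pass is not shown to be unchanged.

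The members and lists were chosen with earlier results of these data known. Genes named are the members, up to 5 genes per list with the smallest p-values, the 3 nearest genes of each changed member, symbol relatives and overlapping genes. Map3k4 and the called cell type markers were named after their values were seen.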

Additional observations from a re-analysis of the deposited data

How the results depend on the processing

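All 8 members kept their direction under the 13 alternatives, except Btg3 in 3 of the fits without 1 library (−0.0163, −0.0861 and −0.0044). The log2 fold change without 1 library ran from −1.44 to −1.07 for Gadd45a, −0.69 to −0.49 for Gadd45b, 0.54 to 0.77 for Gadd45g, −0.46 to −0.40 for Btg1, 0.45 to 0.71 for Btg2, −0.09 to 0.11 for Btg3, 0.11 to 0.30 for Tob1 and 0.24 to 0.37 for Tob2. Gadd45b did not pass without a filter (−0.61), on FPKM with a pseudocount of 1 (−0.47), of 0.1 (−0.50) or without a filter (−0.47), nor Gadd45g on unfiltered FPKM (0.75). Btg2 passed with DESeq2 (0.61) and on filtered FPKM (0.71 and 0.72). The cause was not tested. Changed members numbered 2 on unfiltered FPKM and 1 to 3 without 1 library. Changed genes numbered 2953 with DESeq2, 1063 on unfiltered FPKM and 629 to 1186 without 1 library. Rises were 44.2% of calls on counts and 63.1% on FPKM with a pseudocount of 1. With 0.1 the median over the whole tested set was 0.0934 (log2), against −0.01 on counts.

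List calls without 1 library ran from 0 to 1 for stress kinases, GADD45 partners, other BTG and TOB partners, transcription factors and the CDK inhibitors with pocket proteins. They ran from 1 to 6 for immediate early genes, and were 0 by edgeR for the deadenylase list (3 at an unadjusted p under 0.05 in the fit on all libraries). DESeq2 called 1 deadenylase gene, 12 immediate early genes and 2 of the CDK inhibitors and pocket proteins (Cdkn2b higher and Rbl2 lower). FPKM with either pseudocount called 1 and 9 in the first 2 of these. Unfiltered FPKM called 3 immediate early genes and 0 other BTG and TOB partners, transcription factors or CDK inhibitors. No filter on counts called 1 GADD45 partner and 0 CDK inhibitors.

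Deviations of same-numbered libraries from their group means had correlations over genes of −0.0895, 0.0295 and 0.0234 for replicates 1 to 3. Differently numbered libraries ranged from −0.141 to 0.122. With 3 libraries per group, these values cannot settle whether the numbers pair the samples. With the replicate block, 923 genes and 3 members passed. Gadd45b (−0.61) and Btg1 (−0.43) did not and Btg2 (0.62) did, and the lists had 2 immediate early calls and 0 for GADD45 partners, other BTG and TOB partners and transcription factors. Members had at least 1004 counts per library, so depth limits them little.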
